A study of Mus musculus with 8 samples.

Results

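Mouse embryonic stem cells that lack the Argonaute genes Ago1 and Ago2 were compared with wild-type cells across all genes and pathways. The comparison took 4 of the 8 RNA-seq libraries of the series, chosen by their labels: 2 libraries of the double knockout (Ago1_2 KO) and 2 of the wild type (WT). All were E14 cells, an embryonic stem cell line from the mouse strain 129/Ola. Every culture, knockout and wild type alike, was kept for at least 2 weeks in 2i medium, which is serum-free N2B27 with LIF, the GSK3 inhibitor CHIR99021 and the MEK inhibitor PD0325901. The other 4 libraries were 2 of Dgcr8 KO and 2 of Drosha KO cells in the same medium. They helped to estimate the spread and served a second comparison. The labels do not say how many clones stand behind each genotype nor whether 2 libraries of 1 genotype were grown apart. The p-values therefore measure only the spread between these libraries, and a difference between clones cannot be told apart from an effect of the knockout.

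Argonaute proteins hold a microRNA (miRNA) and use it to find matching sites in the 3 prime untranslated regions (UTRs) of mRNAs. TNRC6 proteins then bind the Argonaute and call in the CCR4-NOT deadenylase, which shortens the poly(A) tail and lowers the mRNA. Target choice rests mainly on the seed, bases 2 to 8 of the miRNA. Drosha and Dgcr8 act earlier, cutting miRNA precursors out of their primary transcripts. In mouse embryonic stem cells the miR-290 cluster is the best known source of miRNAs, and it shares a seed with the miR-302 cluster. The mature sequences below, from RefSeq (GRCm38.p6), are shown because the site analysis turns on their seeds, which are in capitals.
mmu-miR-291a-3p: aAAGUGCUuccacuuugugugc
mmu-miR-294-3p: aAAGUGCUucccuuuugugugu
mmu-miR-302b-3p: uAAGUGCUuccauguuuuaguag
mmu-miR-17-5p: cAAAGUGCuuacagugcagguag
mmu-miR-92a-3p: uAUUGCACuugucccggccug
mmu-let-7a-5p: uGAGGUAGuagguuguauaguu
The first 3 share the seed AAGUGCU. The seed of miR-17-5p shares 6 letters with it, shifted by 1 base, but a single 8-base site cannot serve both families. The seeds of miR-92a-3p and let-7a-5p are unrelated.

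The libraries held 24172661 and 13229771 counts for Ago1_2 KO and 17783035 and 22299884 for WT, and those of the whole series ranged from 13229771 to 26333907. The WT libraries stood apart from each other: 2427 genes differed more than 2-fold between WT 1 and WT 2, against 707 between the Ago1_2 KO libraries. The log2 ratio of WT 1 to WT 2 increased with the length of a gene's exons (Spearman's rho across genes 0.42, over 16315 genes that share these libraries). All 10 embryonic stem cell markers were tested and none was called changed. Their summed level was 8559 and 8575 CPM (counts scaled for library depth) in Ago1_2 KO and 8709 and 10167 CPM in WT. Of the 11 fibroblast feeder markers, 8 were under 1 CPM in all 4 libraries, among them Col1a2, Col3a1 and Dcn, and 2 of the 3 tested were called higher. The sums of all 11 overlapped, at 11.6 and 16 CPM in Ago1_2 KO and 14.2 and 11.8 CPM in WT. The 10 markers of extraembryonic endoderm, none of the 3 tested called, summed to 9.75 and 9.28 CPM in Ago1_2 KO and 4.74 and 4.89 CPM in WT.

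The targeted genes were read first. Ago1 stood at 160 and 87.8 CPM in Ago1_2 KO and 105.7 and 63.3 CPM in WT, and the groups overlapped. Ago2 stood at 216 and 195 CPM in Ago1_2 KO and 464 and 227 CPM in WT, lower in both knockout libraries. Neither passed the test: the log2 fold change was 0.56 ± 0.36 (SE) for Ago1 (adjusted p = 0.30, edgeR's quasi-likelihood test with Benjamini-Hochberg adjustment) and -0.75 ± 0.32 for Ago2 (adjusted p = 0.13). Ago2 did pass without WT 2 (-1.15, adjusted p = 0.025), with a correction for exon length (-1.17, adjusted p = 0.0041) and without a filter on low counts (-0.75, adjusted p = 0.011), but was at -0.11 without WT 1 (adjusted p = 0.75). Counts over a whole gene would miss an edit too small to lower the mRNA, so these values do not check the genotype.

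Of 16388 genes tested, 17.6% were called changed, 10.2% higher and 7.38% lower, at an adjusted p under 0.05. These shares are the background for every count below. The filter on low counts took all genotypes, so a gene near 0 in WT was tested only if a knockout was higher. The median log2 fold change was 1.70 among the called rises and -1.20 among the called falls, and -0.02 over all genes tested. Large rises outnumbered large falls: 395 genes were more than 8-fold higher and 68 more than 8-fold lower. A knockout library decided many calls. With Ago1_2 KO 1 left out 692 genes were called, and with Ago1_2 KO 2 left out 556. Of the 2887 called genes, 463 stayed called in the same direction when each of the 4 libraries was left out in turn, 396 of them higher and 67 lower.

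**Figure D1:**
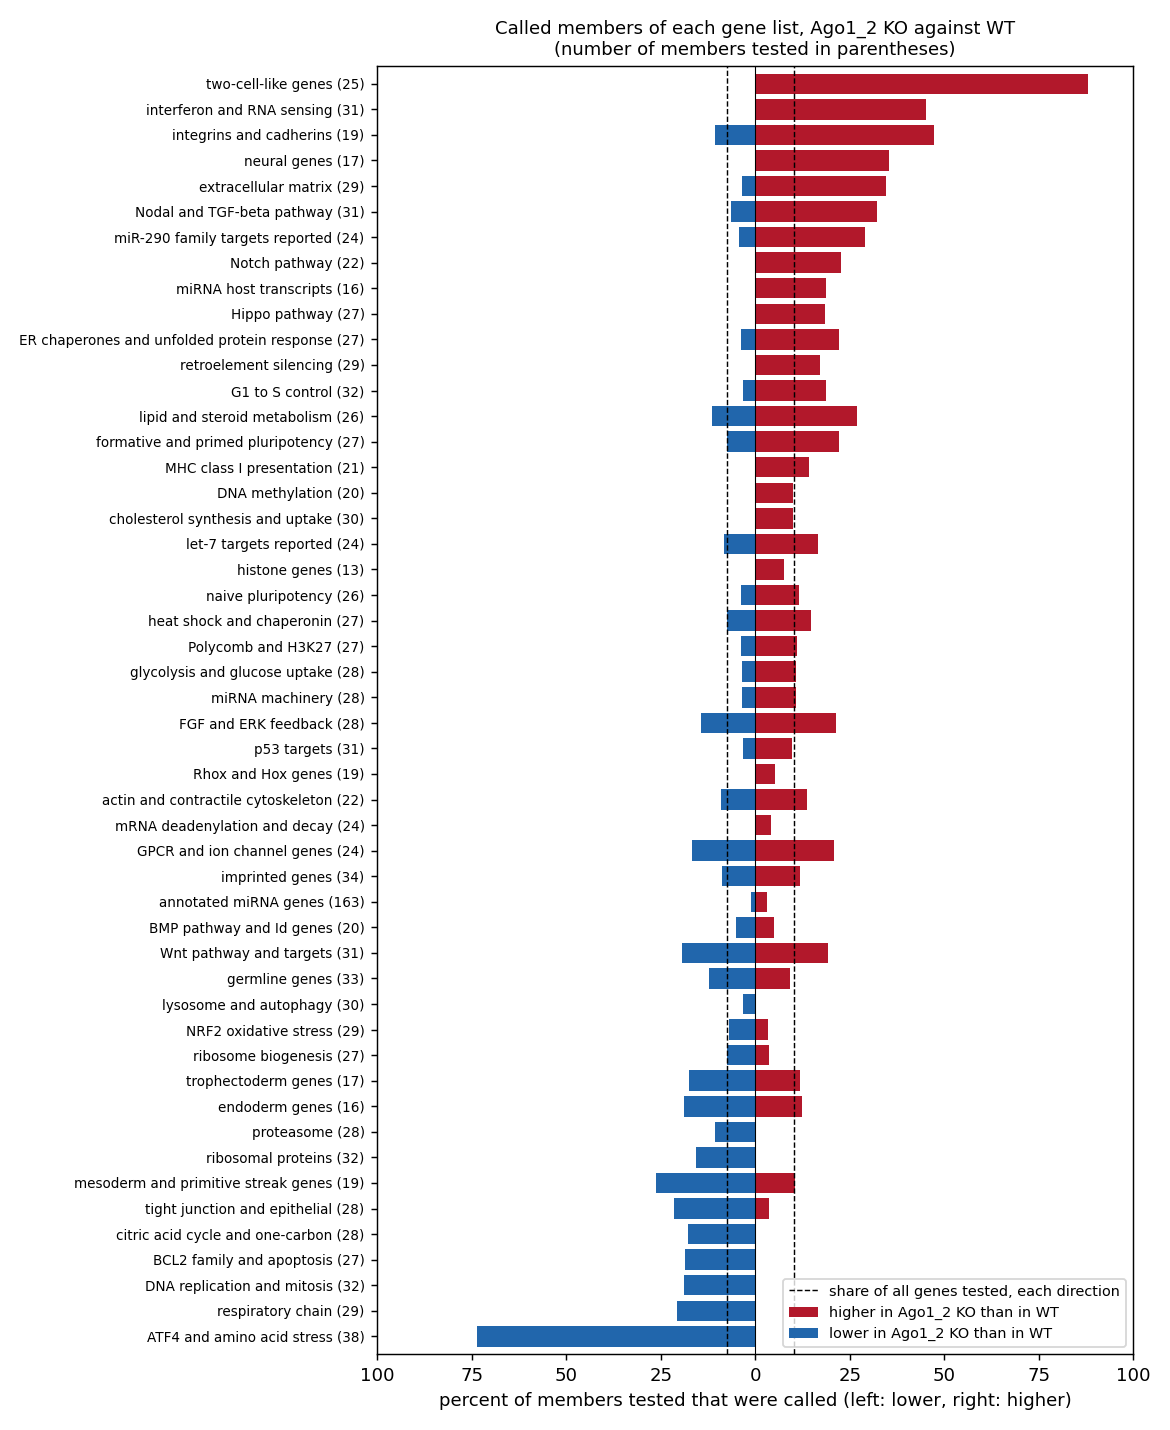
Percent of the tested members of each gene list called lower (left) and higher (right) in Ago1_2 KO against WT, with the number tested in parentheses and the shares of all genes tested as dashed lines (7.38% lower, 10.2% higher). The 2-cell-like list reaches farthest to the right (22 of 25 higher) and the ATF4 list farthest to the left (28 of 38 lower).

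Of the 28 listed genes of the miRNA pathway, 3 rose and 1 fell. The share of rises was close to that of all genes, and the share of falls was under it. The list's median log2 fold change was 0.26, and 0.006 with the correction for exon length. Tnrc6a and Tnrc6b, which encode the Argonaute partners that recruit the deadenylase, both rose. Tnrc6b stood at 187 and 165 CPM in Ago1_2 KO and 78.1 and 40.9 CPM in WT (log2 fold change 1.56 ± 0.35, adjusted p = 0.018). Tnrc6a stood at 235 and 223 CPM in Ago1_2 KO and 120 and 61.6 CPM in WT (1.34 ± 0.33, adjusted p = 0.023). For both genes the knockout libraries were close together and above either WT library, and the calls were lost without WT 2 and without either knockout library. The adjusted p ran from 0.074 to 0.096 for Tnrc6b and from 0.079 to 0.11 for Tnrc6a. Mov10, a helicase that works with Argonaute and also restrains retrotransposons, rose to 397 and 449 CPM in Ago1_2 KO, against 160 and 184 CPM in WT. Lin28a, which blocks let-7 maturation, was the member that fell, to 1.47 and 0.823 CPM in Ago1_2 KO, against 19.5 and 26.1 CPM in WT. The remaining Argonautes did not pass: Ago3 had 31.9 and 24.8 CPM in Ago1_2 KO and 31.8 and 13.5 CPM in WT, and Ago4 had 1.55 and 1.87 CPM in Ago1_2 KO and 3.10 and 1.89 CPM in WT. Among 24 genes of deadenylation and decay, 1 rose, Cnot6l (2.08-fold), and none fell, a share under that of all genes.

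The highest share of called rises in any list was among genes of the 2-cell embryo. Embryonic stem cell cultures hold a few cells that briefly switch on this program, in which the transcription factor Dux (listed as Duxf3) activates Zscan4 genes and others. Of 25 tested members 22 rose and none fell, with a median log2 fold change of 5.79. Some members had almost no counts in WT and could be tested only because a knockout was higher. Tcstv3, for example, had 170 counts over both Ago1_2 KO libraries and 3 over both WT libraries. The share and the median therefore depend in part on the filter on low counts. Zscan4f, which acts in telomere maintenance, stood at 149 and 354 CPM in Ago1_2 KO and 1.81 and 1.5 CPM in WT. Tmem92 had 20.6 and 51.9 CPM in Ago1_2 KO and 0.564 and 0.581 CPM in WT, and Zfp352, a zinc finger gene, 2.59 and 3.97 CPM in Ago1_2 KO and 0 and 0.0967 CPM in WT. Both knockout libraries lay far above both WT libraries for all 3 genes. Duxf3 itself had 144 counts over both Ago1_2 KO libraries and 1 over both WT libraries, a depth-scaled ratio of 144 (95% interval 25.4 to 5711, counting error only). Ago1_2 KO 2 was the higher knockout library for 21 of the 22 genes that rose, by a median ratio of 2.13. Dppa2, which lies upstream of Dux, rose less, to 132 and 210 CPM in Ago1_2 KO, against 45.2 and 37.5 CPM in WT. Its partner Dppa4 was not called, at 39.1 and 50.5 CPM in Ago1_2 KO and 47.6 and 61.2 CPM in WT. With 1 of the 4 libraries left out, 19 to 23 members were called higher, and 19 of the 22 were called in every such fit. The Zscan4, Usp17l and Tdpoz genes are near-identical copies, and how reads were shared among them is not given, so their single values are uncertain. In bulk RNA, more cells in this state and more RNA per cell cannot be told apart.

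The clearest group of falls was the list of genes driven by ATF4, the transcription factor of the amino acid response, which is translated when amino acids run short or proteins misfold. Of 38 tested members 28 fell and none rose, with a median log2 fold change of -1.12. The enzymes of serine synthesis fell together. Phgdh, the first step, stood at 45.8 and 60.1 CPM in Ago1_2 KO and 232 and 260 CPM in WT (-2.22 ± 0.25, adjusted p = 0.0010). Psat1, the second step, stood at 232 and 233 CPM in Ago1_2 KO and 837 and 644 CPM in WT, and Psph, the last, fell by 1.48 on the log2 scale. Asns, which makes asparagine, fell to 485 and 497 CPM in Ago1_2 KO, against 1541 and 1729 CPM in WT (-1.74 ± 0.24, adjusted p = 0.0023). For each of these genes the groups were far apart, and for Psat1 and Asns the knockout libraries were nearly equal.

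Stress regulators of the list fell as well. Chac1, which degrades glutathione, stood at 4.58 and 6.58 CPM in Ago1_2 KO and 59.5 and 41.3 CPM in WT (-3.19 ± 0.42, adjusted p = 0.0021). Trib3, Ddit3 and Atf3, which act in the later stress response, fell by 2.02, 2.47 and 2.47 on the log2 scale. All 7 aminoacyl-tRNA synthetases tested fell, from Cars (-1.20) to Aars (-0.73). Of the 40 genes listed for ATF4, 39 were found by symbol, and a listed synthetase was not tested. Among amino acid transporters Slc7a11, Slc7a5, Slc3a2, Slc1a4 and Slc1a5 fell, whereas Slc7a1, Slc7a3 and Slc38a2 were not called. The Atf4 mRNA itself had 375 and 480 CPM in Ago1_2 KO and 344 and 658 CPM in WT, and the groups overlapped (adjusted p = 0.62). The list's called falls dropped to 10 without Ago1_2 KO 1 and to 10 without Ago1_2 KO 2. They numbered 22 without WT 1 and 23 without WT 2.

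Set beside the other knockouts, the ATF4 genes placed WT apart. The summed level of all 38 tested members was 5082 and 5493 CPM in Ago1_2 KO and 10918 and 10309 CPM in WT. It was 5329 and 5516 CPM in Dgcr8 KO and 5145 and 5465 CPM in Drosha KO. None of the 38 members was called lower in Ago1_2 KO than in the mean of the other knockouts, where 1.07% of all genes were, and 2 were called higher, against 5.33% of all genes (Ddit4 and Atf5, a mitochondrial stress factor).

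The promoters of this list, from 250 bases before to 50 after the RefSeq transcript start, were searched on both strands for TGATGNAA, the composite element that ATF4 and C/EBP proteins bind. Of 31 members with a window 11 held it (35.5%), against 4.51% of all 27025 genes with a window and 2.79% of 11084 tested genes. All 11 were among the 23 called members with a window, and none of the 8 members not called held it. The list was written by hand from genes described as driven by ATF4, so its excess over all genes is no result of these counts. A match describes letters in this window only and is no measured binding site. The windows of Asns (GRCm38.p6, chr6:7693160-7693459, minus strand) and Chac1 (chr2:119350992-119351291, plus strand) are printed because both genes fell steeply, with the element in capitals.
Asns: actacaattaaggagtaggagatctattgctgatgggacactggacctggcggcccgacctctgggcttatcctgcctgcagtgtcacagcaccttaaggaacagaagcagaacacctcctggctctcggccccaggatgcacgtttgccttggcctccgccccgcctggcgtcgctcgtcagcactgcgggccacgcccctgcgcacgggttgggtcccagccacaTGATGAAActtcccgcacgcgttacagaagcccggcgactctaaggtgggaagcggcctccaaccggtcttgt
Chac1: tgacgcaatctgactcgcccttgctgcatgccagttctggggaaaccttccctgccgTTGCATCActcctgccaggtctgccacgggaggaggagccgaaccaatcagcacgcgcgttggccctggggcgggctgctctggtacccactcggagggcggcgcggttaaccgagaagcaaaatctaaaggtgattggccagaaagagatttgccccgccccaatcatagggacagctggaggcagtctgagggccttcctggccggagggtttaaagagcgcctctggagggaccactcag
The Asns window holds the element on the gene's own strand, and the Chac1 window holds its reverse complement.

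**Figure D2:**
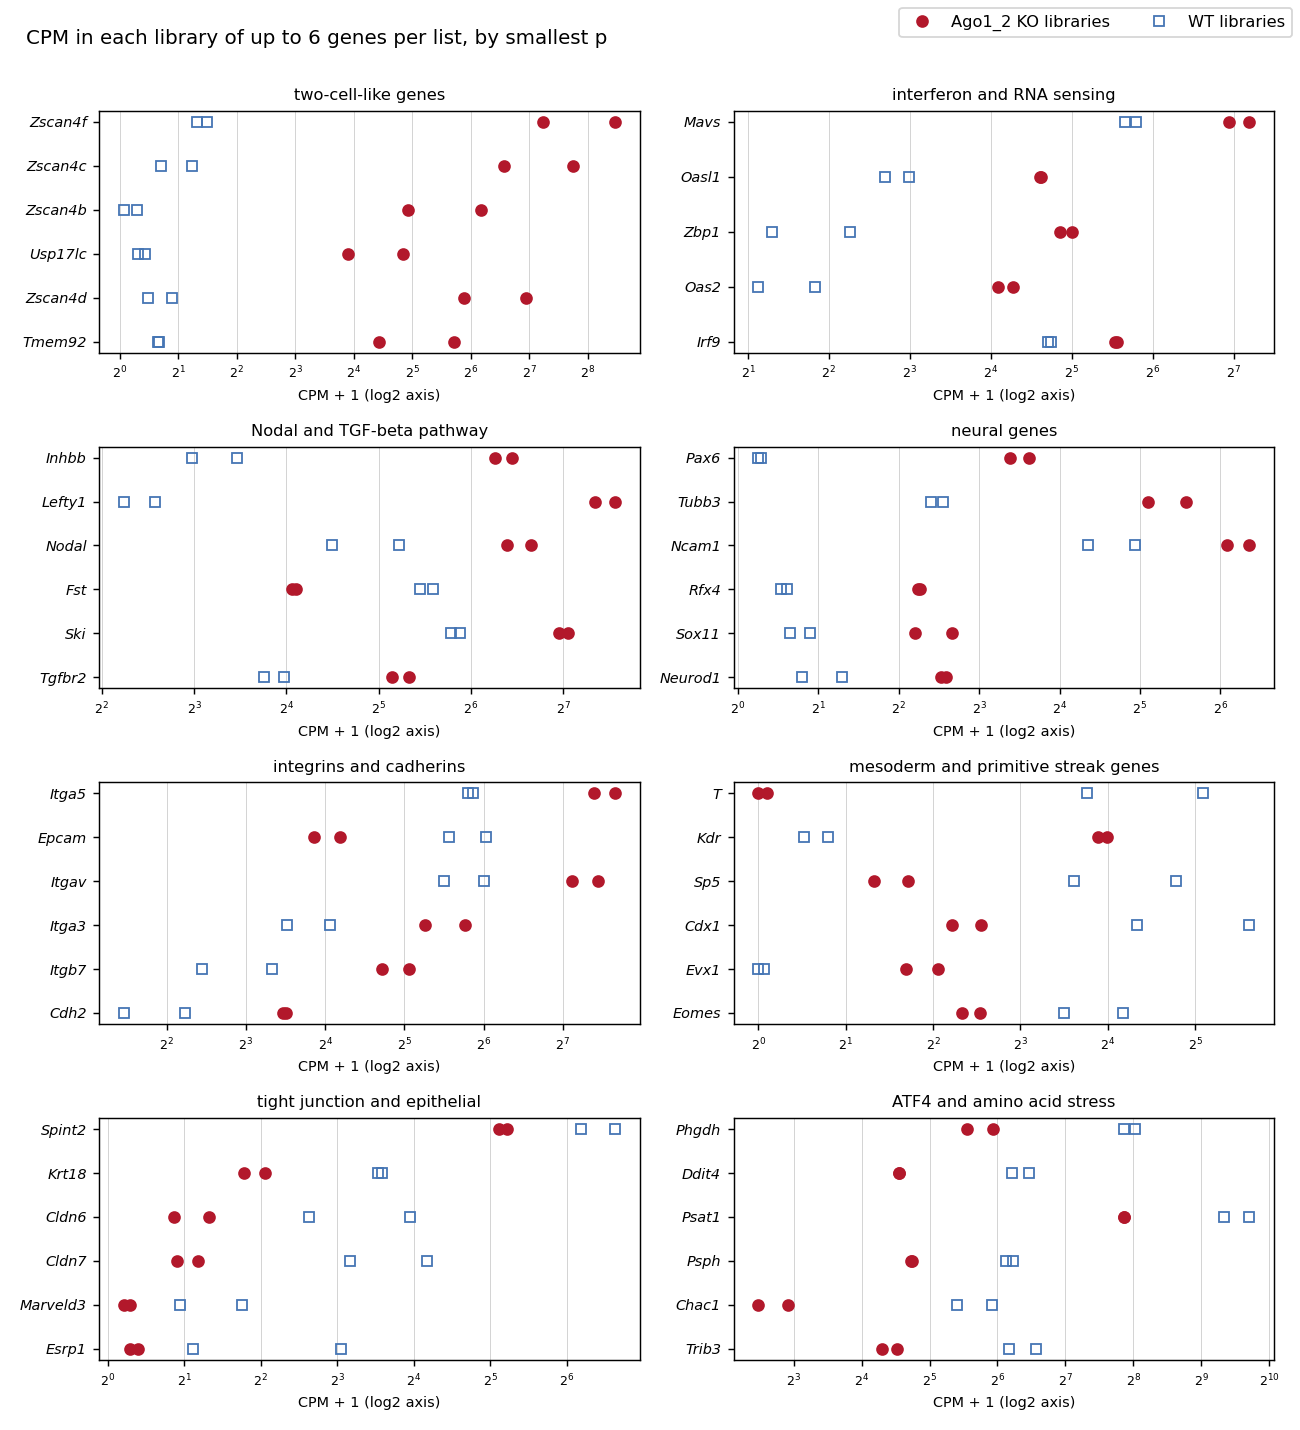
CPM + 1 on a log2 axis in the 2 Ago1_2 KO libraries (filled circles) and the 2 WT libraries (open squares) for up to 6 genes of each of 8 lists, ordered by p. The knockout libraries lie to the right of both WT libraries for every gene shown of the 2-cell-like, interferon and neural lists, and to the left for every gene shown of the ATF4 and tight junction lists.

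Genes of the interferon response and of RNA sensing also moved one way. Embryonic stem cells respond weakly to interferon and to double-stranded RNA. Of 31 tested members 14 rose and none fell, with a median log2 fold change of 1.26. Among the sensors, Ifih1 (MDA5), which detects long double-stranded RNA, stood at 4.62 and 2.47 CPM in Ago1_2 KO and 0.564 and 0.0967 CPM in WT. Mavs, the adaptor on mitochondria to which it signals, stood at 122 and 146 CPM in Ago1_2 KO and 54.5 and 49.7 CPM in WT (1.36 ± 0.19, adjusted p = 0.0024). The groups were well separated for Mavs, while Ifih1 was low in all 4 libraries. Ddx58 (RIG-I) was not called, at 36.2 and 39.5 CPM in Ago1_2 KO and 26.6 and 19.8 CPM in WT. Tmem173 (STING), the adaptor of DNA sensing, rose 2.64-fold.

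Among the effectors, the oligoadenylate synthase genes Oas1a, Oas2, Oasl1 and Oasl2 rose. Oas2 stood at 16.1 and 18.4 CPM in Ago1_2 KO and 1.19 and 2.56 CPM in WT. Zbp1, a sensor of Z-form nucleic acid, stood at 27.9 and 31.1 CPM in Ago1_2 KO and 3.78 and 1.45 CPM in WT. Ifit1, which binds uncapped RNA, had 2.59 and 2.25 CPM in Ago1_2 KO and no count in either WT library, so it was at least 31.6-fold higher (against 3 counts over the WT group). Irf9 rose 1.79-fold, while Irf1 missed the threshold (adjusted p = 0.054). The genes Irf7, Isg15, Ifit3, Mx2 and Usp18 were too low to be tested. The number called higher was 5 without either knockout library and 9 without WT 2. The interferon promoter element GAAANNGAA, searched on both strands in the same windows, stood in 5 of 10 members called and in 7 of 13 not called. It was present in 9.76% of all genes.

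Of 21 tested genes of MHC class I presentation 3 rose (1 without Ago1_2 KO 1 and 0 without Ago1_2 KO 2), namely Tapbp (2.68-fold) and Calr (1.89-fold), which help load peptides, and Erap1 (7.35-fold), which trims them. Among 29 genes that silence retroelements 5 rose and none fell, and 2 were called higher without either knockout library. The background for both lists is the 10.2% of all genes called higher. Apobec3, a cytidine deaminase that restricts retroviruses, stood at 271 and 272 CPM in Ago1_2 KO and 110 and 122 CPM in WT.

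In the Nodal and TGF-beta pathway 10 of 31 tested members rose and 2 fell (median 0.43). The ligand gene Inhbb stood at 75.6 and 86.2 CPM in Ago1_2 KO and 10.1 and 6.87 CPM in WT (3.26 ± 0.41, adjusted p = 0.0017). Nodal rose 3.15-fold, and its secreted antagonist Lefty2 stood at 154 and 199 CPM in Ago1_2 KO and 15.9 and 51.1 CPM in WT. WT 2 was the higher WT library for Nodal and Lefty2, and both knockout libraries were above it. The receptor Tgfbr2 (2.70-fold), the mediators Smad2 (1.92-fold) and Smad3 (1.85-fold) and the inhibitors Ski (2.27-fold) and Skil (2.56-fold) rose. The ligand gene Inhbe fell by 2.86 on the log2 scale, and Fst, which encodes an activin trap, fell by 1.49. The number called higher was 5 without Ago1_2 KO 1 and 3 without Ago1_2 KO 2.

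Reported targets of the miR-290 family were examined as a list of 24, of which 7 rose and 1 fell (median 0.65). Lats2, a Hippo kinase, stood at 13.2 and 13.5 CPM in Ago1_2 KO and 5.42 and 3.24 CPM in WT (1.63 ± 0.40, adjusted p = 0.024). Fndc3a and Ei24 rose 2.02-fold and 1.56-fold, and Lefty1, Lefty2, Tgfbr2 and Ccnd1 are the other rises. Txnip fell by 0.82 on the log2 scale. The number called higher was 2 without Ago1_2 KO 1 and 1 without Ago1_2 KO 2. In the list of 24 reported let-7 targets 4 rose and 2 fell, and without either knockout library none was called higher and 1 was called lower. Ccnd2, a G1 cyclin, stood at 14.4 and 12.3 CPM in Ago1_2 KO and 0.395 and 1.11 CPM in WT, while Nras and Lin28a fell.

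Seed sites were then counted in the longest annotated 3 prime UTR of each gene (GENCODE M21). Genes with an 8-base site of the miR-290 and miR-302 family, AGCACTTA, had a median log2 fold change of 0.33 (486 genes), against -0.00 for genes without one (12943 genes). Of the 486 genes 18.9% were called higher and 3.09% lower, against 11.3% and 7.75% of all 13429 tested genes with a UTR. Genes with sites have long UTRs, and long genes were higher, so the comparison was repeated within 3 equal groups of UTR length. In the group of 50 to 807 bases the median was 0.21 with a site and -0.24 without. In the group of 808 to 2002 bases it was 0.22 with a site and -0.01 without, and in the longest group 0.41 with a site and 0.21 without. The difference between genes with and without a site was positive in all 3 groups. Over all lengths it was 0.48 without WT 1 and 0.23 without WT 2.

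The miR-17 family gave a median of 0.36 with a site (595 genes) and -0.01 without, and the miR-25/92 family 0.32 with a site (370 genes) and -0.00 without. Within the groups of UTR length, from shortest to longest, the difference was 0.36, 0.25 and 0.23 for miR-17. It was 0.35, 0.11 and 0.22 for miR-25/92. For let-7 the median was 0.15 with a site (584 genes) and 0.00 without, and within the groups of UTR length the difference ran from -0.04 to 0.25. Over all UTRs the difference was positive for all 13 families examined, from 0.14 (let-7) to 0.36 (miR-17). A positive difference was therefore not particular to the families named. After the correction for exon length it was 0.23 for miR-290, 0.29 for miR-17, 0.19 for miR-25/92 and 0.04 for let-7. Genes share these libraries and many UTRs hold several sites, so the medians are descriptions with no test.

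**Figure D3:**
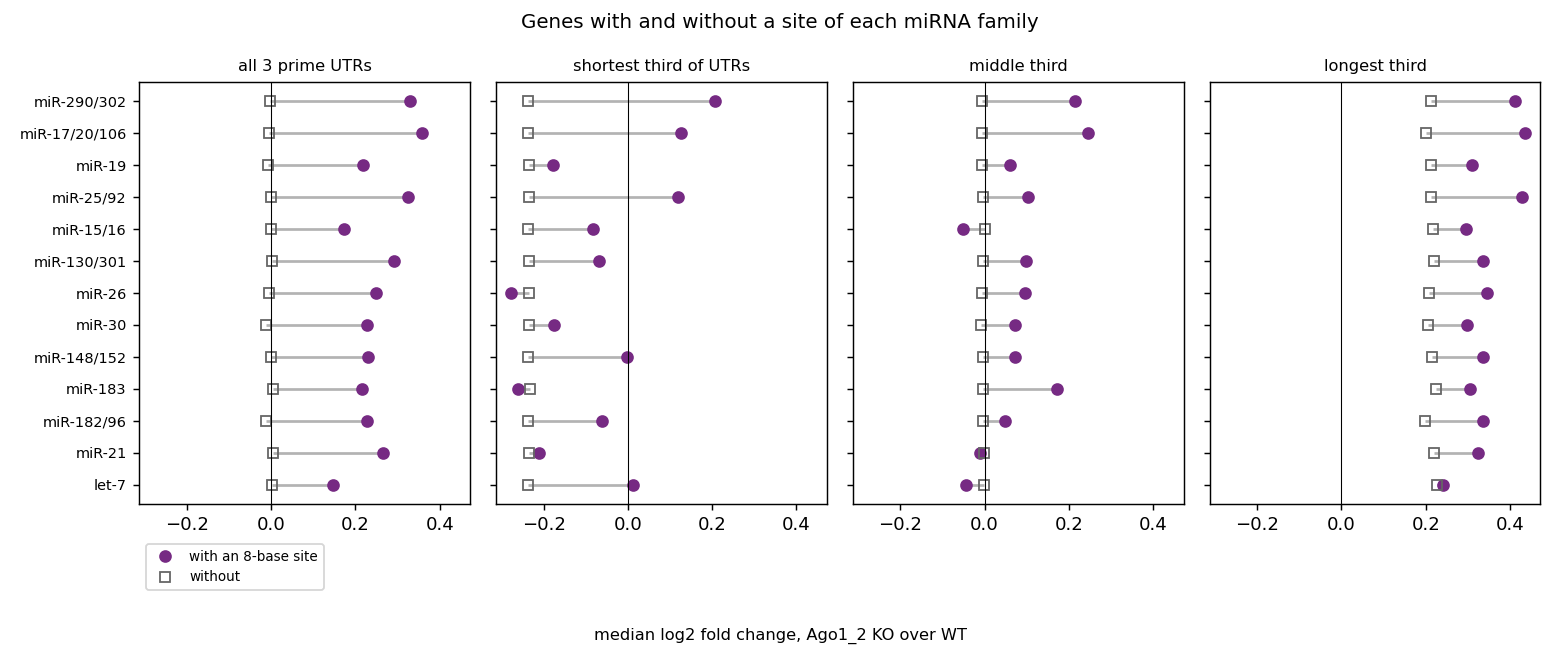
Median log2 fold change, Ago1_2 KO over WT, of genes with (filled circles) and without (open squares) an 8-base site of 13 miRNA families, over all 3 prime UTRs and in 3 groups of UTR length. The miR-290 and miR-17 circles lie right of their squares in every panel, and the squares themselves move right as UTRs get longer.

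Of the called rises with a mean of at least 5 CPM in a group, 82 held a miR-290 family site. The 10 largest rises included the chloride channel gene Ano1, Lefty1, the transcription factor genes Ehf, Myrf, Dmbx1 and Irf2, the ligand gene Wnt7b and the surface protein gene Cd109. Cd109, which encodes a TGF-beta co-receptor, stood at 42.5 and 51.9 CPM in Ago1_2 KO and 6.43 and 5.42 CPM in WT (2.99 ± 0.26, adjusted p = 0.00033). Myrf stood at 26.3 and 25.7 CPM in Ago1_2 KO and 1.69 and 0.822 CPM in WT. Neither gene's groups came near each other. The sites of 5 of these genes are printed as 30-base windows of the mRNA strand (GRCm38), with the site in capitals.
Ano1: atgagaccctcAGCACTTAccattgtaata
Lefty1: actgtatgcgaAGCACTTAcatgtatagat
Myrf: aaggttctcaaAGCACTTAtcctcaggata
Irf2: ccttatcttgaAGCACTTAcaataggcctt
Cd109: tcttttttgtaAGCACTTAaagaaatattc
They lie at chr7:144588993-144589022 (Ano1, minus strand), chr1:180938202-180938231 (Lefty1, plus strand), chr19:10209078-10209107 (Myrf, minus strand), chr8:46846653-46846682 (Irf2, plus strand) and chr9:78716107-78716136 (Cd109, plus strand). A matching site does not show that the miRNA binds there.

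Of 26 naive pluripotency genes 3 rose and 1 fell (median 0.11), and none was called higher without either knockout library. With all libraries the share of rises was close to that of all genes, and the share of falls was under it. Fgf4 had 345 and 352 CPM in Ago1_2 KO and 157 and 220 CPM in WT, and Prdm14 and Sall4 rose 1.61-fold and 1.51-fold. Gbx2 fell to 2.51 and 3.44 CPM in Ago1_2 KO, against 10.9 and 17.4 CPM in WT. Nanog, at 992 and 1135 CPM in Ago1_2 KO and 722 and 652 CPM in WT, missed the threshold (adjusted p = 0.059). Among 27 formative and primed genes 6 rose and 2 fell (median 0.61), and 2 were called higher without either knockout library. Zic2 stood at 51.4 and 61.6 CPM in Ago1_2 KO and 11.1 and 15 CPM in WT, and Zic5 rose 5.47-fold. Dnmt3a, a de novo DNA methyltransferase, rose 2.18-fold (without a call once exon length was corrected, adjusted p = 0.22). In a separate list of 20 DNA methylation genes, Dnmt3a and Tet1 were the 2 that rose, a share close to that of all genes. Tet1, a 5-methylcytosine oxidase, had 825 and 646 CPM in Ago1_2 KO and 256 and 105 CPM in WT.

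Of 17 tested neural genes 6 rose and none fell (median 0.97), and the other 14 of the 31 listed were too low to test. The number called higher was 2 without Ago1_2 KO 1, 3 with Ago1_2 KO 2 left out, and 3 without WT 2. Tubb3, a neuronal tubulin, stood at 33.4 and 46.7 CPM in Ago1_2 KO and 4.85 and 4.30 CPM in WT (3.13 ± 0.52, adjusted p = 0.0052). Pax6 rose to 11.3 and 9.43 CPM in Ago1_2 KO, against 0.226 and 0.194 CPM in WT, and Ncam1 rose 3.01-fold. The summed level of the 10 neural progenitor markers was 80.6 and 88.7 CPM in Ago1_2 KO and 33.0 and 38.0 CPM in WT. Fabp7, Hes5, Olig2 and Neurog2 were among those under 1 CPM in all 4 libraries. The part of differentiated cells in these rises was not tested.

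The mesoderm and primitive streak list split. Among 19 tested members 5 fell and 2 rose, while the median log2 fold change was 0.94, with 12 members not called. The number called lower was 2 without Ago1_2 KO 1 and 3 without Ago1_2 KO 2. T (Brachyury) had 1 count over both Ago1_2 KO libraries and 908 over both WT libraries. Cdx1 stood at 3.66 and 4.86 CPM in Ago1_2 KO and 19.1 and 48.2 CPM in WT, and Sp5 at 2.27 and 1.5 CPM in Ago1_2 KO and 11.2 and 26.5 CPM in WT. WT 2 was the higher WT library for these 3 genes, and both knockout libraries were below WT 1. Eomes and Cdx4 also fell. Kdr, a VEGF receptor, and Evx1 rose. Kdr stood at 14.9 and 13.8 CPM in Ago1_2 KO and 0.734 and 0.435 CPM in WT. The 8 endothelial markers summed to 249 and 246 CPM in Ago1_2 KO and 206 and 194 CPM in WT. Of these markers 3 of 6 tested were higher, and Cdh5 and Emcn were under 1 CPM in all 4 libraries.

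In the Wnt list 6 of 31 members rose and 6 fell, and T, Sp5 and Cdx1 count in this list too. Without Ago1_2 KO 1 there were 3 rises and 3 falls, and without Ago1_2 KO 2 there were 1 and 4. Axin2, a feedback inhibitor commonly used as a readout of beta-catenin, fell to 14.2 and 21.4 CPM in Ago1_2 KO, against 61.0 and 64.9 CPM in WT (-1.83 ± 0.23, adjusted p = 0.0017). Rnf43, a second feedback inhibitor, and the transcription factor gene Tcf7 fell by 1.87 and 0.76 on the log2 scale. The rises were Notum, which inactivates Wnt ligands (4.01-fold), Apcdd1 (3.28-fold), Fzd2 (2.95-fold), Tcf7l1, a repressor of Wnt targets (2.05-fold), Ccnd1 (1.86-fold) and Wnt7b. All these cultures held the GSK3 inhibitor.

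Genes of the FGF and ERK list split as well, with 6 rises and 4 falls among 28. Without Ago1_2 KO 1 no member was called, and without Ago1_2 KO 2 there was 1 rise and 1 fall. The feedback inhibitors Spry1 and Spry2 fell by 1.42 and 1.23 on the log2 scale, and the ERK target Etv4 fell to 9.03 and 11.3 CPM in Ago1_2 KO, against 22.6 and 62.0 CPM in WT. The receptor gene Fgfr2 rose 5.56-fold, while Fgfr4 fell to 0.637 and 0.823 CPM in Ago1_2 KO, against 4.46 and 7.21 CPM in WT. All these cultures held the MEK inhibitor.

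The Hippo list had 5 rises and no falls among 27, and the Notch list 5 rises and no falls among 22. The Hippo list had 2 rises without either knockout library and 3 without WT 2, and the Notch list had 1 with Ago1_2 KO 1 left out, none with Ago1_2 KO 2 left out and 1 without WT 2. Ajuba, an inhibitor of Lats kinases, stood at 96 and 100.9 CPM in Ago1_2 KO and 32.7 and 29.8 CPM in WT (1.65 ± 0.24, adjusted p = 0.0028). Vgll3, a cofactor of TEAD factors, rose 16.6-fold and Nf2, an upstream activator of Lats kinases, 2.11-fold. Of the Notch receptors, Notch1 (2.02-fold), Notch2 (2.00-fold) and Notch4 (4.84-fold) rose.

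Adhesion genes rose in part. Of 19 tested integrin and cadherin genes 9 rose and 2 fell (median 0.79), and 3 were called higher without Ago1_2 KO 1, 2 with Ago1_2 KO 2 left out, and 6 without WT 2. Itga5, the fibronectin receptor subunit, stood at 167 and 201 CPM in Ago1_2 KO and 55.0 and 57.6 CPM in WT (1.71 ± 0.19, adjusted p = 0.00092). Its relatives Itgav, Itga3 and Itgb7 rose 2.91-fold, 3.47-fold and 4.25-fold. Cdh2, the cadherin of mesenchymal and neural cells, rose to 10.4 and 10.1 CPM in Ago1_2 KO, against 1.75 and 3.68 CPM in WT. Epcam, an epithelial adhesion molecule, fell to 13.6 and 17.1 CPM in Ago1_2 KO, against 64.1 and 46.3 CPM in WT (-1.85 ± 0.24, adjusted p = 0.0020). For Itga5 and Epcam alike the 2 groups did not overlap.

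Genes of the extracellular matrix gave 10 rises and 1 fall among 29 (median 0.45). With the correction for exon length there were 7 rises and 1 fall, and the median was 0.19. The laminin genes split: Lama5 stood at 322 and 411 CPM in Ago1_2 KO and 149 and 170 CPM in WT and Lamb1 rose 2.31-fold, but Lama1 fell to 69.2 and 50.3 CPM in Ago1_2 KO, against 203 and 208 CPM in WT. Loxl2, which crosslinks collagen, and P4ha1, which hydroxylates it, rose 5.25-fold and 2.22-fold. Thbs1 (thrombospondin 1) had 195 counts over both Ago1_2 KO libraries and 2 over both WT libraries. The number called higher was 3 without Ago1_2 KO 1, 2 with Ago1_2 KO 2 left out, and 6 without WT 2. Col1a1, which is also a feeder marker, was among the rises, at 1.39 and 1.57 CPM in Ago1_2 KO and 0.226 and 0.387 CPM in WT. The part of feeder cells was not tested.

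In the list of tight junction and epithelial genes 6 of 28 fell and 1 rose, and 1 was called lower without either knockout library. The summed level of all 28 was 1449 and 1603 CPM in Ago1_2 KO and 1500 and 1213 CPM in WT, and the groups overlapped. Cldn6 and Cldn7, claudins of early epithelia, fell to 1.51 and 0.823 CPM (Cldn6) and 0.875 and 1.27 CPM (Cldn7) in Ago1_2 KO. In WT Cldn6 stood at 14.4 and 5.18 CPM and Cldn7 at 17 and 7.98 CPM. Esrp1, an epithelial splicing regulator, had 0.318 and 0.225 CPM in Ago1_2 KO and 7.28 and 1.16 CPM in WT. WT 1 was the higher WT library for these 3 genes, and both knockout libraries lay below WT 2. Krt18, Marveld3 and Spint2 fell too, whereas Spint1 rose 1.74-fold.

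In the list of lipid and steroid metabolism 7 of 26 genes rose and 3 fell, and most of the rises were retinoid genes. The number called higher was 3 without Ago1_2 KO 1 and 4 without Ago1_2 KO 2. Rarg, a retinoic acid receptor, stood at 123 and 200 CPM in Ago1_2 KO and 21.3 and 35.6 CPM in WT. Crabp2, which carries retinoic acid to the nucleus, stood at 8.63 and 9.28 CPM in Ago1_2 KO and 0.508 and 0.822 CPM in WT (3.73 ± 0.43, adjusted p = 0.0012). Aldh1a2, which makes retinoic acid, rose 4.53-fold, and Rarb, Stra6, Rdh1 and Hsd17b14 completed the rises. The falls were Lpl, Pla2g1b and Cyp2b23. In the list of cholesterol synthesis and uptake the share of called rises was close to that of all genes. Of 30 genes of cholesterol synthesis and uptake 3 rose, among them Fasn, the fatty acid synthase gene (1.86-fold), and 1 was called higher without either knockout library.

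The medians of several groups of growth genes were below 0, by an amount that depended on the WT library. Ribosomal protein genes had 5 falls among 32 and a median of -0.85. Their summed level was 31649 and 34468 CPM in Ago1_2 KO, 40966 CPM in WT 1 and 75099 CPM in WT 2. The median was -0.22 with 3 falls without WT 2 and -1.21 with 30 falls without WT 1, and none was called without either knockout library. The respiratory chain had 6 falls among 29 (median -0.66), 21 without WT 1 and 1 without WT 2 (median -0.25). The proteasome had 3 falls among 28, close to the share of all genes, with 17 without WT 1 and 0 without WT 2. Genes of DNA replication and mitosis had 6 falls among 32, 1 without either knockout library and 3 without WT 2. Ccnb2, a mitotic cyclin, stood at 69.9 and 66.2 CPM in Ago1_2 KO and 152.4 and 173 CPM in WT (-1.26 ± 0.18, adjusted p = 0.0029), and Mcm6, a helicase subunit, at 354 and 301.4 CPM in Ago1_2 KO and 726 and 558 CPM in WT. In the G1 to S list 6 of 32 rose, among them Rb1 (2.05-fold) and Skp2 (1.79-fold), and Ccna2 fell, but none of these was called without either knockout library.

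In the list of citric acid cycle and one-carbon genes 5 of 28 fell and none rose, and 1 was called lower without either knockout library. Gldc, which cleaves glycine, fell to 59.8 and 52.9 CPM in Ago1_2 KO, against 244 and 178 CPM in WT (-1.91 ± 0.21, adjusted p = 0.00091). Shmt1 and Mthfd2 of the folate cycle fell by 0.78 and 1.08 on the log2 scale. Of 27 BCL2 family and apoptosis genes 5 fell and none rose, and none was called without either knockout library. The falls included the death-promoting genes Bid (0.513-fold of WT), Hrk (0.187-fold) and Bbc3 (0.445-fold).

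**Figure D4:**
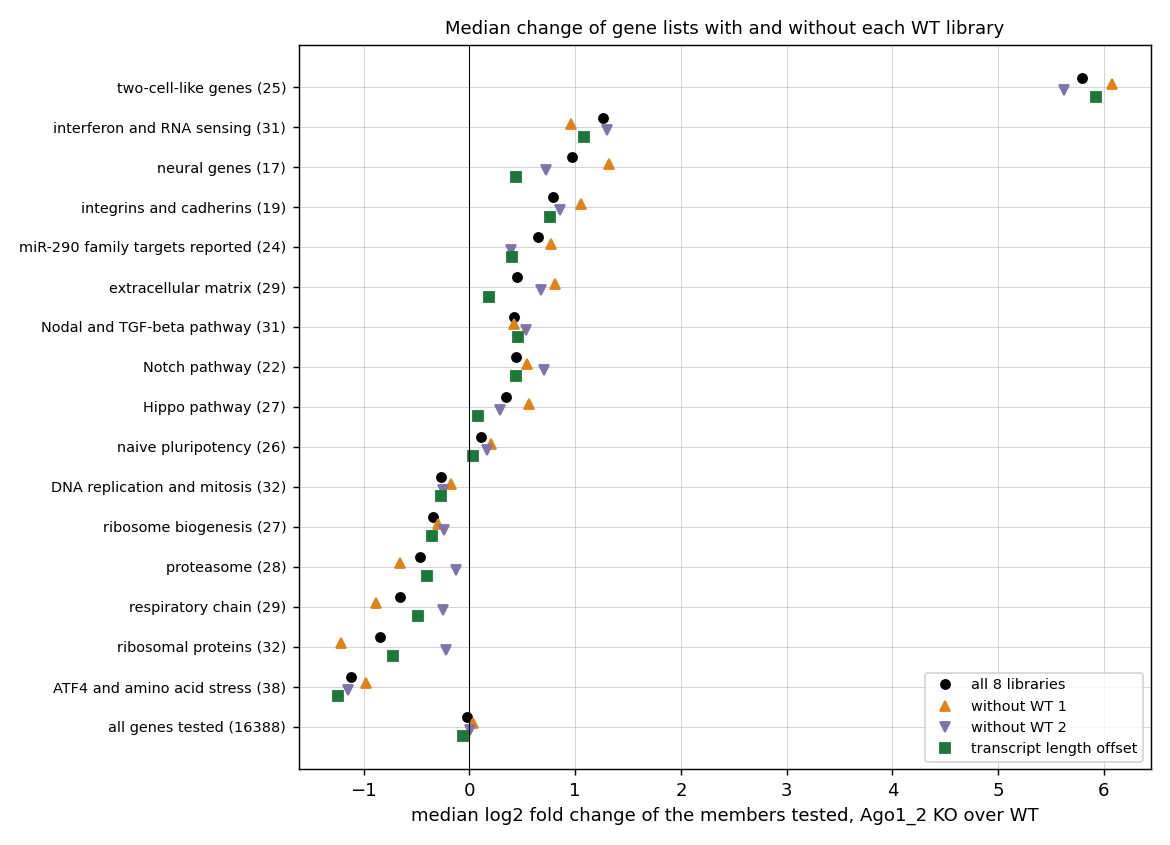
Median log2 fold change, Ago1_2 KO over WT, of 16 gene lists and of all genes tested, with all 8 libraries, without WT 1, without WT 2 and after a correction for exon length. The ribosomal protein median runs from -1.21 to -0.22 with the WT library left out. Each of the 16 lists, the ribosomal proteins included, stays on its side of 0 in every fit shown.

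Exon length moved with the fold change over all genes (Spearman's rho 0.30 across 16315 genes). In 10 equal groups of genes by exonic length the median log2 fold change ran from -0.52 in the shortest to 0.39 in the longest. It ran from -0.65 to 0.76 without WT 1 and from -0.19 to 0.16 without WT 2, and WT 1 over WT 2 itself ran along length. With each library's trend on length taken out, a correction chosen after the data had been seen, the groups lay between -0.19 and -0.02. Of the 2887 called genes 2626 were then still called in the same direction. The part of RNA quality or library preparation was not tested.

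**Figure D5:**
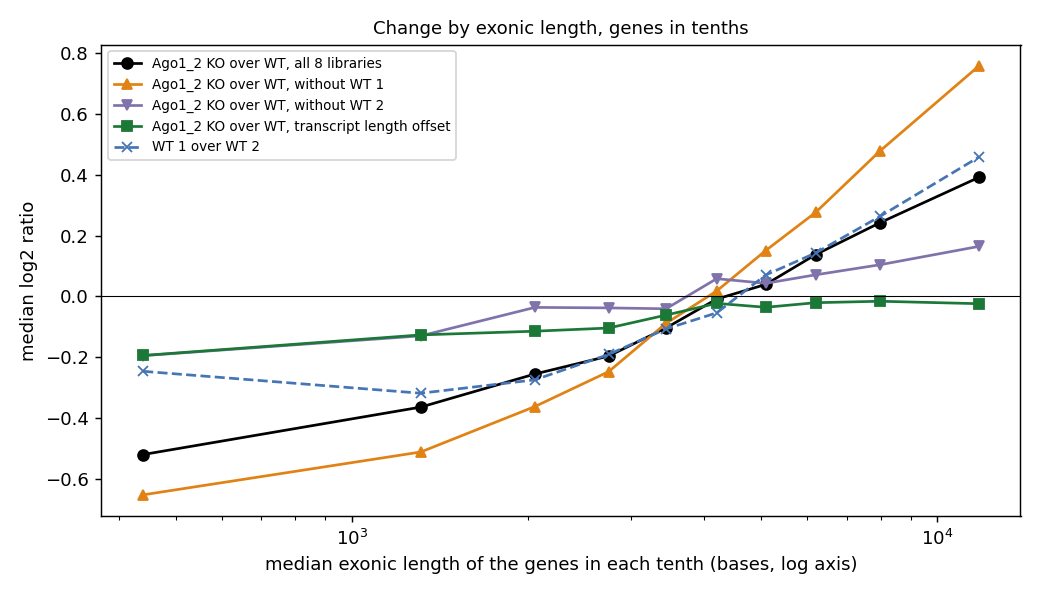
Median log2 ratio of genes in 10 groups of exonic length (log axis, bases) for Ago1_2 KO over WT with all libraries, without WT 1, without WT 2 and after the length correction, and for WT 1 over WT 2 (dashed). The line for all libraries climbs from -0.52 to 0.39, is steeper without WT 1, and is nearly flat after the correction.

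Other genes chosen for the size of their change follow. Tgtp1, an interferon-induced GTPase, stood at 18.9 and 19 CPM in Ago1_2 KO and 0.508 and 0.532 CPM in WT. Crmp1, a cytoskeletal regulator of neurons, stood at 29.2 and 31.1 CPM in Ago1_2 KO and 0.282 and 0.871 CPM in WT. Rnf213, a large interferon-responsive ubiquitin ligase, had 560 and 455 CPM in Ago1_2 KO and 160 and 114 CPM in WT. All 3 were separated from WT by far more than either pair of libraries differed. Ctcfl, a germline relative of CTCF, rose in the fit but rested on 1 library: it had 24.3 CPM in Ago1_2 KO 1, 1.05 CPM in Ago1_2 KO 2, and 0.452 and 0.242 CPM in WT, and without Ago1_2 KO 1 its adjusted p was 0.36. Among the falls, Pou2f3, a POU factor gene, stood at 2.07 and 2.32 CPM in Ago1_2 KO and 25.2 and 29.9 CPM in WT. In the list of receptor and ion channel genes 5 of 24 rose and 4 fell. S1pr3, a sphingosine phosphate receptor, fell to 0.398 and 0.449 CPM in Ago1_2 KO, against 6.04 and 9.87 CPM in WT. P2rx7, an ATP-gated channel, rose to 83.6 and 120 CPM in Ago1_2 KO, against 23.2 and 24.0 CPM in WT.

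A second comparison asked where Ago1_2 KO differed from the mean of Dgcr8 KO and Drosha KO. The WT libraries enter it only through the estimate of the spread, and the count of 1050 called genes was 1589 without WT 1 and 1585 without WT 2. Of the 16388 genes 6.41% were called, 5.33% higher in Ago1_2 KO and 1.07% lower. Since both comparisons share the Ago1_2 KO libraries, their calls are given side by side and not as agreement: 641 genes were called higher in both, 97 lower in both and 7 in opposite directions. The count of 1050 fell to 308 without Ago1_2 KO 1 and to 127 without Ago1_2 KO 2.

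Of the 25 tested 2-cell-like genes 20 were higher in Ago1_2 KO than in the mean of the other knockouts. The filter on low counts took all genotypes, so members near 0 in the other knockouts were tested only where another genotype was higher. The count of 20 can therefore depend in part on the filter. Zscan4f, at 149 and 354 CPM in Ago1_2 KO, had 7.81 and 8.70 CPM in Dgcr8 KO and 44.1 and 34.9 CPM in Drosha KO. In the interferon list 12 of 31 were higher and none lower. The summed level of these 31 genes was 1852 and 1994 CPM in Ago1_2 KO and 1922 and 1675 CPM in Drosha KO. In Dgcr8 KO it was 902 and 958 CPM, so the sum set Ago1_2 KO apart from Dgcr8 KO and not from Drosha KO. Of 17 neural genes 8 were higher. Pax6 had 11.3 and 9.43 CPM in Ago1_2 KO, 0.369 and 0.381 CPM in Dgcr8 KO and 1.76 and 0.853 CPM in Drosha KO. Igfbp7, which binds insulin-like growth factors, stood at 7.60 and 9.13 CPM in Ago1_2 KO, 0.317 and 0.508 CPM in Dgcr8 KO, 0.624 and 0.659 CPM in Drosha KO, and 0.903 and 0.677 CPM in WT. It was high in the Ago1_2 KO libraries alone among the 8.

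The mean of the other knockouts hides differences between them. Cdh3, a cadherin, had 21.9 and 23.9 CPM in Ago1_2 KO, 1.69 and 1.72 CPM in Dgcr8 KO and 10.9 and 10.5 CPM in Drosha KO. Lefty1 had 162 and 188 CPM in Ago1_2 KO, 9.18 and 6.04 CPM in Dgcr8 KO, and 129 CPM in Drosha KO 1 but 15.3 CPM in Drosha KO 2. Axin2 had 14.2 and 21.4 CPM in Ago1_2 KO, 116 and 126 CPM in Dgcr8 KO and 21.2 and 23.4 CPM in Drosha KO.

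Transcripts that Drosha and Dgcr8 cut made up most of the largest falls against the other knockouts. Of 1174 genes annotated as miRNAs 163 were tested. Of these, 33 were lower in Ago1_2 KO than in the other knockouts and 1 was higher. The filter on low counts took all genotypes, so loci near 0 in Ago1_2 KO were tested only where another genotype was higher. The split of 33 to 1 therefore depends in part on the filter. Mir291a, in the miR-290 cluster, had 1.27 and 1.5 CPM in Ago1_2 KO, 9.02 and 9.91 CPM in Dgcr8 KO, 24.9 and 19.6 CPM in Drosha KO, and 1.35 and 0.919 CPM in WT. The counts for such loci are of long polyadenylated RNA over the hairpin, not of mature miRNA, which this assay does not read. Against WT, 5 of the 163 were called higher and 2 lower, with a median of 0.04 (-0.00 with genes at 0 in a group set at their bound).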

How the data were processed

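Poly(A) RNA of the 8 libraries was sequenced on a HiSeq2000 from reverse-stranded TruSeq libraries, per the labels. The deposited table holds the authors' raw counts per gene of 47643 genes. STAR 2.4.2a and mm10 are named in the submitters' processing notes. The sources used here do not give the counting tool, its strand setting or its annotation. Gene IDs were matched to GENCODE M21 (47224 matched), which also gave exon lengths and UTRs. Counts were scaled with TMM factors (CPM) and tested with edgeR 4.0.16 (R 4.3.3), quasi-likelihood F test, 1 mean per genotype over all 8 libraries, genes kept by filterByExpr (16388), Benjamini-Hochberg over all of them, called at an adjusted p under 0.05. The SE is the log2 fold change over the root of F. Intervals and floors (3 counts over a group) cover counting error only. DESeq2 1.42.0, limma-voom 3.58.1, other filters and scalings, a replicate block, and each library left out were the alternatives. The fits were tested on simulated data. Named genes were taken by rule: 11 genes of the miRNA pathway, the 25 largest called rises and falls and the 15 largest CPM differences each way at 5 CPM or more with both knockout libraries on 1 side of both WT libraries, up to 6 genes of each list by p, the 10 largest rises with a miR-290 family site, and the 10 largest differences each way from the other knockouts. Other members of a list were named to complete its counts, after their values were seen. The comparison and the gene lists were chosen with earlier results of these data known, and no list was tested as a set. Some genes that the rule names are not reported here.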

Additional observations from a re-analysis of the deposited data

How the results depend on the processing

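The count of genes called against WT depended most on which libraries were in the fit. It was 2887 with all 8 libraries and ranged from 556 (without Ago1_2 KO 2) to 4955 (without WT 1) with 1 library left out, the Dgcr8 KO and Drosha KO libraries included, since they help to estimate the spread. The count against the other knockouts was 1050 and ranged from 127 (without Ago1_2 KO 2) to 1589 (without WT 1). Without a filter on low counts the counts were 4431 and 1939, and with only the groups compared in the fit they were 2045 and 1595. The cause was not tested. With DESeq2 they were 3569 and 1338. No label says that a replicate number marks a shared culture or day. Same-numbered libraries correlated in their deviations at 0.0963 to 0.245 over the 6 pairs of genotypes (0.137 for Ago1_2 KO and WT), a hint from the data and not from the design, and with a replicate block the counts were 4053 and 1299. No called gene changed sign under any setting run. Of 159 named called genes 70 stayed called without Ago1_2 KO 1 and 69 without Ago1_2 KO 2, against 138 without WT 1 and 118 without WT 2. Named genes that were not called changed sign: Ago3 (-0.14 with the length correction, and -0.14 without WT 2 to 1.10 without WT 1), Atf4 (0.34 without WT 2, -0.59 without WT 1), Atf5 (0.28 without WT 2, -0.62 without WT 1), Slc7a1 (0.18 without WT 1, -0.64 without WT 2) and Slc7a3 (-0.14 without WT 1, -0.08 without Ago1_2 KO 1, 0.34 without WT 2). With 1 library left out, the lone library of its genotype is assumed to vary like the others.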

Other observations

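Some changes belong to none of the pathways above. Of 34 tested imprinted genes 4 rose and 3 fell, and without either knockout library 2 were called higher and 1 lower. With all libraries both shares were close to those of all genes. The list's median log2 fold change was 0.25, and -0.0003 with the correction for exon length. The paternally expressed Peg3 and Peg10 rose, Peg3 to 113 and 91.4 CPM in Ago1_2 KO, against 32.1 and 19.2 CPM in WT. Mest, whose intron holds a miRNA, fell to 1.75 and 2.54 CPM in Ago1_2 KO, against 11 and 19.2 CPM in WT, and had 58.5 and 60.5 CPM in Dgcr8 KO and 39.9 and 16.9 CPM in Drosha KO. The antisense transcripts Kcnq1ot1 and Nespas were also called higher, but without a stated counting strand their reads cannot be told apart from those of their partners.

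Of 11 tested Y-linked genes 2 rose, and 1 was called higher without either knockout library. Ddx3y, an RNA helicase, stood at 96.2 and 97.9 CPM in Ago1_2 KO and 28.4 and 34.0 CPM in WT, with no count in either Dgcr8 KO library and 116 and 83.2 CPM in Drosha KO. Uty stood at 33.7 and 40.5 CPM in Ago1_2 KO and 16.6 and 17.9 CPM in WT, also with no count in Dgcr8 KO.

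The WT libraries also differed by chromosome. The median log2 fold change of Ago1_2 KO over WT was -0.18 on chromosome 1 (1003 genes, 72 higher and 119 lower), 0.16 without WT 1 and -0.34 without WT 2. On chromosome 15 it was 0.15 (613 genes, 86 higher and 17 lower), 0.02 without WT 1 and 0.37 without WT 2. The part of chromosome copy number was not tested.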
